A study of Homo sapiens with 6 samples.

Results

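The 10 genes described here encode the 3 stress sensors of the endoplasmic reticulum (ER), the transcription factor XBP1, and proteins that fold or remove secretory proteins. They were taken from a fixed list of gene symbols, chosen with earlier results of these data known. Each matched 1 probe set of the array platform's annotation, so that all 10 were among the 22395 genes tested. RNA came from A549, a human lung adenocarcinoma cell line of epithelial origin. The 3 groups were cells given 2 µM Comp.4, cells given 2 µM Comp.2 and vehicle-treated cells, with 2 arrays each. Treatment began 24 h after plating and RNA was taken on day 2. By the title, both compounds target histone acetyltransferases in a DNA sequence-directed way. The labels name them only by code, as forms of 646-PIP in one place and 664-PIP in another. All groups share the genome of 1 cell line, and the labels do not say what the vehicle was. Nor do they state that the 2 arrays of a group came from separate cultures, so the p-values rest on a spread that may be purely technical.

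When unfolded proteins build up in the ER, 3 membrane sensors respond. IRE1, encoded by ERN1, splices the XBP1 mRNA so that it yields an active transcription factor, ATF6 is cut in the Golgi to free a transcription factor, and PERK, encoded by EIF2AK3, phosphorylates eIF2α, which slows translation while favouring that of ATF4. XBP1 and ATF6 induce chaperones, disulfide isomerases and the machinery of ER-associated degradation, which extracts misfolded proteins for the proteasome, while ATF4 induces amino acid metabolism genes and CHAC1. Secretory epithelium of the lung relies on this system. The values here are total transcript levels, 1 per gene, and do not separate spliced from unspliced XBP1 or show sensor activation.

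The promoter sequences are shown because some of these genes hold the response's known DNA elements and others do not. CHAC1 and ASNS, the only genes of the lists described below that passed the test, are shown beside them. Windows of 300 bases (250 before to 50 after the start) came from RefSeq on GRCh38.p14, where all 10 genes had an entry. Both strands were searched for the ER stress response element ERSE (CCAAT and CCACG with any 9 bases between them), ERSE-II (ATTGG and CCACG with any 1 base between them), the core of the unfolded protein response element (TGACGTGG), the C/EBP-ATF or CARE element bound by ATF4 (TGATGNAA) and the cyclic AMP response element (TGACGTCA). Of 34796 distinct promoters, ERSE stood in 27 (0.0776%), ERSE-II in 19 (0.0546%), the third motif in 255 (0.733%), CARE in 1264 (3.63%) and the last in 641 (1.84%). No 2 of the matches shown overlap. In the HERPUD1 promoter (chr16:56931892-56932191, plus strand) the first capitals mark a CARE match on the reverse strand, at -176 to -169 from the start, and the second an ERSE-II match, at -117 to -107.
HERPUD1: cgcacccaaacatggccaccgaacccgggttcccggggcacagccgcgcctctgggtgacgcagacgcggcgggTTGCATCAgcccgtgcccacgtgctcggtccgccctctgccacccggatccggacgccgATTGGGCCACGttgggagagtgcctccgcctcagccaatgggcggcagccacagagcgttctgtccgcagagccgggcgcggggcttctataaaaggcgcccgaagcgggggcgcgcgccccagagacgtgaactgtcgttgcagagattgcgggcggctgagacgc
Shorter stretches show the matches of the other genes in capitals. XBP1 (chr22:28800597-28800627, minus strand) and CALR (chr19:12938378-12938408, plus strand, motif reversed) held ERSE, and SDF2L1 (chr22:21642108-21642130, plus strand, motif reversed) held ERSE-II. CHAC1 (chr15:40953256-40953275, plus strand, motif reversed) and ASNS (chr7:97872463-97872482, minus strand), which are not among the 10, held CARE.
XBP1: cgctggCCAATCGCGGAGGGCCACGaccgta
CALR: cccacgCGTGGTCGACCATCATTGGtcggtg
SDF2L1: cggaagCGTGGACCAATcaaaac
CHAC1: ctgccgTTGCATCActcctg
ASNS: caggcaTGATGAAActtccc
The windows of ERN1, ATF6, EIF2AK3, EDEM1, SEL1L and PDIA4 held none of the 5 motifs as spelled. A match describes letters and is not evidence of binding.

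The deposited log2 levels had a minimum of 1.8 and a maximum of 13.3 over 53617 probe sets, with array medians of 4.55 to 4.56. The number of arrays limits the precision. All 10 epithelial and A549 markers, among them EPCAM, CDH1 and ALDH1A1, lay above the median gene (5.35), and their summed log2 levels were 90.3 to 90.5 under Comp.4, 91.1 to 91.1 under Comp.2 and 90.5 to 90.85 in vehicle. Among markers of other cells, 1 of 6 for fibroblasts (COL1A1), 1 of 5 for endothelium (CLDN5) and 1 of 6 for leukocytes (CD14) lay above it. The summed fibroblast markers were 25.6 to 25.6, 25.6 to 26.0 and 25.1 to 25.5 in the same order of groups, those of endothelium 23.1 to 23.2, 22.4 to 22.9 and 22.5 to 22.6, and those of leukocytes 25.4 to 25.5, 25.3 to 25.6 and 24.96 to 25.4. Their part in the results was not tested. In bulk RNA, a change in the share of cells and a change in RNA per cell cannot be told apart.

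None of the 10 genes passed an adjusted p of 0.05 in any of the 3 comparisons (limma, adjusted over 22395 genes), and the lowest adjusted p of a member was 0.184, for SEL1L under Comp.4. All 30 of the 95% intervals lay within a 1.5-fold change in either direction. All 10 genes were measured above the median gene. The gap between the 2 arrays of a group had a median of 0.06 log2 units over the 30 gene and group pairs and exceeded 0.2 in 3 of them. Over all 6 arrays a gene's values spanned 0.15 (CALR) to 0.44 (EIF2AK3) log2 units. The largest differences were those of HERPUD1 under Comp.2, SEL1L and EDEM1 under Comp.4, and EIF2AK3 and HERPUD1 between the compounds.

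**Figure D1:**
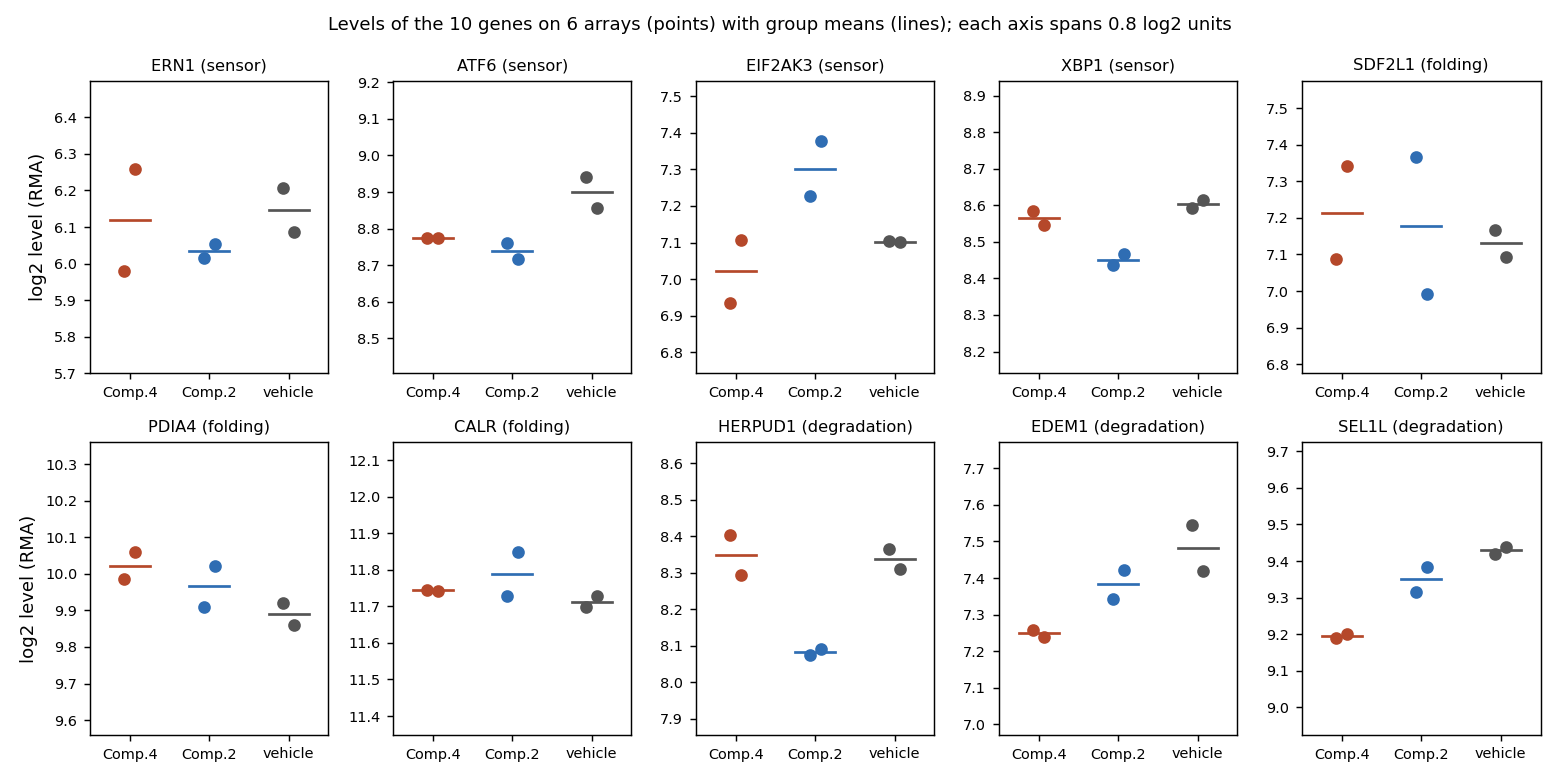
Log2 level (y axis, RMA) of each of the 10 genes on the 6 arrays, with points for arrays, lines for means of 2 arrays, and every axis covering the same range. HERPUD1 has its lowest arrays under Comp.2 (8.07 and 8.09), while SEL1L (9.19 and 9.20) and EDEM1 (7.26 and 7.24) have theirs under Comp.4.

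Among the sensors, EIF2AK3 differed most between groups. EIF2AK3 (probe set 16900053), the PERK kinase gene, measured 6.94 and 7.11 under Comp.4, 7.23 and 7.38 under Comp.2, and 7.10 and 7.10 in vehicle. Both Comp.2 arrays lay above the other 4, and the Comp.4 and vehicle arrays overlapped. Its log2 change was 0.20 under Comp.2 (SE 0.09, 95% interval -0.02 to 0.42, adjusted p = 0.477) and -0.08 under Comp.4 (-0.30 to 0.14). It was 1.21-fold lower under Comp.4 than under Comp.2 (log2 -0.28, -0.50 to -0.06, adjusted p = 0.242), the largest difference of a member between the compounds.

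ATF6 (probe set 16672988), the sensor that is itself a transcription factor, measured 8.77 and 8.77 under Comp.4, 8.76 and 8.72 under Comp.2, and 8.94 and 8.86 in vehicle. The 4 treated arrays all lay below both vehicle arrays, by log2 -0.13 under Comp.4 (-0.30 to 0.05, adjusted p = 0.441) and -0.16 under Comp.2 (-0.33 to 0.01, adjusted p = 0.471), and these 2 comparisons share the vehicle arrays. The compounds differed by 0.04 (-0.14 to 0.21).

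XBP1 (probe set 16933535) measured 8.58 and 8.55 under Comp.4, 8.44 and 8.47 under Comp.2, and 8.59 and 8.61 in vehicle. The Comp.2 arrays were the lowest, at log2 -0.15 against vehicle (-0.31 to 0.01, adjusted p = 0.472), while Comp.4 differed from vehicle by -0.04 (-0.20 to 0.13) and from Comp.2 by 0.11 (-0.05 to 0.28). ERN1 (probe set 16847771), the IRE1 gene, measured 5.98 and 6.26 under Comp.4, 6.01 and 6.05 under Comp.2, and 6.21 and 6.09 in vehicle. The Comp.4 arrays spanned those of both other groups. Its log2 changes were -0.03 under Comp.4 (-0.28 to 0.23) and -0.11 under Comp.2 (-0.37 to 0.14).

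Among the folding genes, CALR varied least over the 6 arrays and SDF2L1 most within a group. CALR (probe set 16858774) encodes calreticulin, a lectin chaperone that binds calcium, and measured 11.74 and 11.74 under Comp.4, 11.73 and 11.85 under Comp.2, and 11.70 and 11.73 in vehicle. Its log2 changes were 0.03 under Comp.4 (-0.15 to 0.21) and 0.08 under Comp.2 (-0.10 to 0.25). The Comp.2 arrays overlapped the vehicle range and the Comp.4 arrays did not, by a margin of hundredths of a log2 unit.

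PDIA4 (probe set 17064135), a protein disulfide isomerase gene, measured 9.99 and 10.06 under Comp.4, 9.91 and 10.02 under Comp.2, and 9.92 and 9.86 in vehicle. The Comp.4 arrays lay above both vehicle arrays, with a log2 change of 0.13 (-0.05 to 0.32, adjusted p = 0.449), and the Comp.2 arrays overlapped both other groups (0.08 against vehicle, -0.11 to 0.26). SDF2L1 (probe set 16927633), whose product works with the ER chaperone BiP, measured 7.09 and 7.34 under Comp.4, 7.37 and 6.99 under Comp.2, and 7.17 and 7.09 in vehicle. It had the widest gap within a group of any member, 0.37 between the Comp.2 arrays. All 3 groups overlapped, and its intervals were the widest of the 10, at -0.25 to 0.42 for Comp.4 (log2 change 0.08) and -0.29 to 0.39 for Comp.2 (0.05).

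The genes of ER-associated degradation held the largest differences from vehicle. HERPUD1 (probe set 16819325) encodes a membrane protein that organises the degradation complex, and measured 8.40 and 8.29 under Comp.4, 8.07 and 8.09 under Comp.2, and 8.37 and 8.31 in vehicle. Both Comp.2 arrays lay below the other 4, and the Comp.4 arrays spanned the vehicle pair. The mean was 8.08 ± 0.01 under Comp.2 and 8.34 ± 0.04 in vehicle (SD, n = 2 each), a log2 change of -0.26 or 1.19-fold lower (SE 0.07, 95% interval -0.43 to -0.08, adjusted p = 0.313). Under Comp.4 the change was 0.01 (-0.17 to 0.19), a value whose sign turned (-0.02) when arrays were centred on their medians.

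SEL1L (probe set 16795394) encodes the adaptor of the ubiquitin ligase HRD1, and measured 9.19 and 9.20 under Comp.4, 9.32 and 9.38 under Comp.2, and 9.42 and 9.44 in vehicle. No 2 groups overlapped, with Comp.4 lowest and Comp.2 between. The log2 change was -0.24 under Comp.4 (1.18-fold lower, SE 0.07, -0.40 to -0.07, adjusted p = 0.184) and -0.08 under Comp.2 (-0.25 to 0.09, adjusted p = 0.717). EDEM1 (probe set 16937050), whose product directs mannose-trimmed glycoproteins to degradation, measured 7.26 and 7.24 under Comp.4, 7.34 and 7.42 under Comp.2, and 7.54 and 7.42 in vehicle. The Comp.4 arrays were the lowest, and those of Comp.2 overlapped vehicle. The log2 change was -0.23 under Comp.4 (-0.42 to -0.05, adjusted p = 0.220) and -0.10 under Comp.2 (-0.29 to 0.09).

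**Figure D2:**
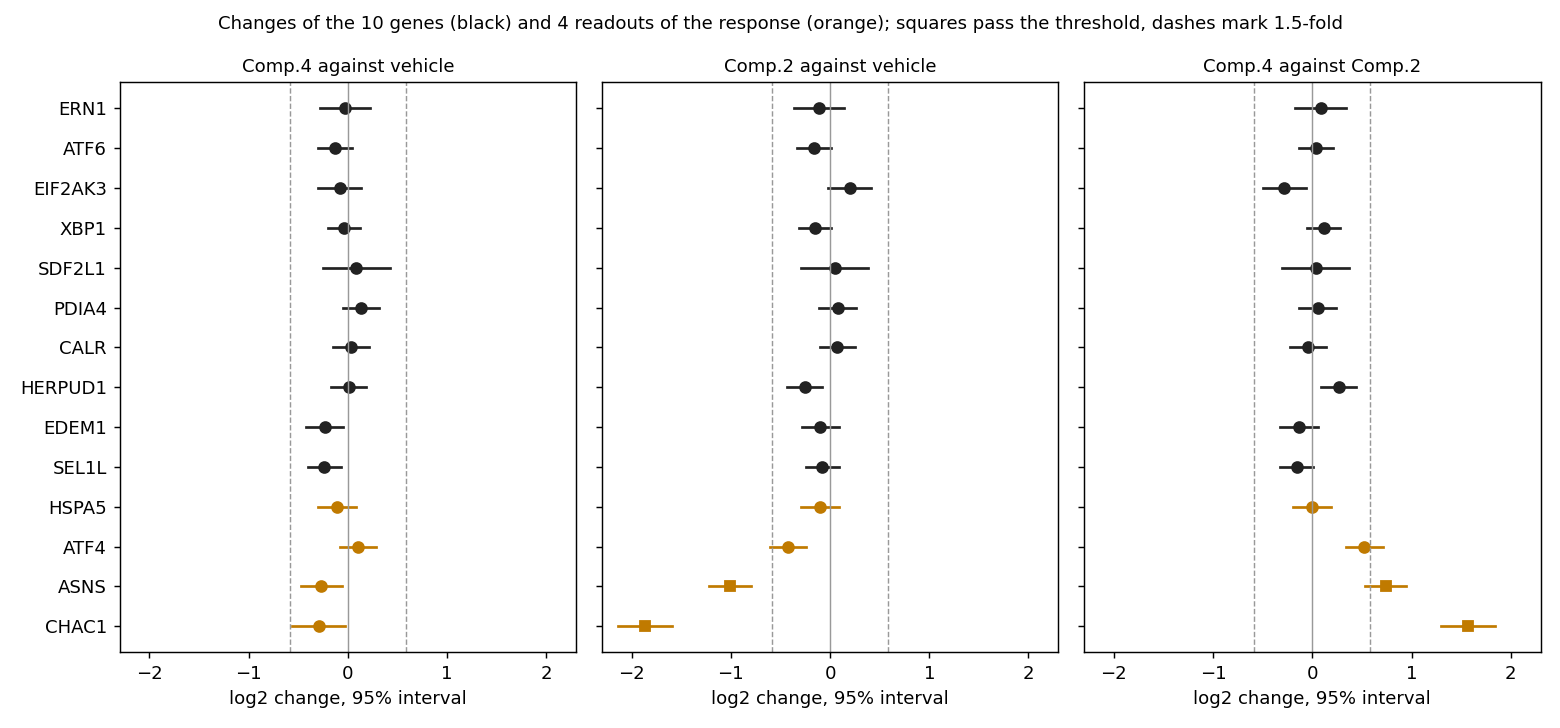
Log2 change (x axis, with 95% interval from limma) of the 10 genes, in black, and of HSPA5, ATF4, ASNS and CHAC1, in orange, in the 3 comparisons. Squares mark an adjusted p under 0.05 and dashed lines a 1.5-fold change. All 30 black intervals stay between the dashed lines, while ASNS and CHAC1 lie outside them under Comp.2.

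Comp.4 against vehicle asked how the first compound altered these transcripts. SEL1L (-0.24) and EDEM1 (-0.23) had the lowest values, and PDIA4 the highest, 0.13. No member passed, where 0.147% of all genes did. At an unadjusted p under 0.05 there were 2 of 10, SEL1L and EDEM1, against 16.5% of all genes, and 6 of 10 had arrays that did not overlap between the groups (2 higher, 4 lower), against 49.4% of all genes (27.2% higher, 22.2% lower). In either direction these shares are near those of all genes. The shares of all genes take in dim genes, so the genes above the median level are the closer comparison. Of the 11197 genes above the median level, which include all 10, 21.9% had an unadjusted p under 0.05. Without overlap, 3177 of the 11197 were higher and 3481 lower. The median log2 change of the 10 was -0.03, against 0.02 over all genes. With a variance prior that follows the mean level SEL1L passed (adjusted p = 0.0147), where 5.47% of all genes did. Of the 11197 genes above the median level, 438 passed higher and 682 lower in that fit. Of the further genes named in each comparison, CHAC1 had -0.29 (adjusted p = 0.271), ASNS -0.27 (adjusted p = 0.214) and HSPA5 -0.11 (adjusted p = 0.543). ATF4 had 0.10 (adjusted p = 0.543) and DDIT3 0.01, a value whose sign turned under other processing. Whether these genes report ER stress in any comparison was not tested. Without the second Comp.4 array the median of the 10 was -0.08.

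Comp.2 against vehicle asked the same of the other compound. HERPUD1 had the lowest value, -0.26, followed by ATF6 (-0.16) and XBP1 (-0.15), and EIF2AK3 the highest, 0.20. No member passed, where 0.196% of all genes did, and 1, HERPUD1, had an unadjusted p under 0.05, against 11.2%. In 6 of 10 genes the arrays did not overlap (1 higher, 5 lower), against 43.7% of all genes (22.7% higher, 21.0% lower). Among the 11197 genes above the median level, 2628 were higher and 3034 lower without overlap, and 13.7% had an unadjusted p under 0.05. A variance prior that follows the mean level called no member either, where 1.73% of all genes passed. The median was -0.09, against 0.004 over all genes. The same arrays held falls of CHAC1 and ASNS. CHAC1, the gene of a glutathione-cleaving enzyme, measured 7.58 and 7.77 under Comp.4, 5.98 and 6.23 under Comp.2, and 8.02 and 7.91 in vehicle. Its change under Comp.2 was 3.64-fold (log2 -1.86, SE 0.11, adjusted p = 0.00603). ASNS, the asparagine synthetase gene, fell by 1.01 on the log2 scale (SE 0.09, adjusted p = 0.0209). ATF4 had -0.42 (adjusted p = 0.135), DDIT3, the gene of the factor CHOP, -0.29 (-0.62 to 0.03, adjusted p = 0.485), and HSPA5, the BiP gene, -0.10 (-0.30 to 0.09, adjusted p = 0.679). The DDIT3 value was -0.50 without the first Comp.2 array and -0.08 without the second. DDIT3 lay below the median gene by its mean over 6 arrays, and its Comp.2 arrays differed by 0.42. The call of CHAC1 was lost on leaving out any single array of either group compared (adjusted p = 0.0576 to 0.112), and that of ASNS on leaving out any 1 of the 6 arrays (adjusted p = 0.0508 to 0.212). Their log2 changes then stayed at -1.99 to -1.74 and -1.10 to -0.91. A group left with 1 array has no spread of its own in such a fit and is assumed to vary like the other groups.

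Comp.4 against Comp.2 compared 2 compounds at the same dose and day. HERPUD1 was higher under Comp.4 (log2 0.27, SE 0.07, 0.09 to 0.44, adjusted p = 0.194) and EIF2AK3 1.21-fold lower, as given above. SEL1L (-0.16, -0.32 to 0.01) and EDEM1 (-0.13, -0.32 to 0.05) were the next lower, and XBP1 (0.11) the next higher. No member passed, where 0.371% of all genes did, and 2 of 10 had an unadjusted p under 0.05, HERPUD1 and EIF2AK3, against 15.0%. In 6 of 10 genes the arrays did not overlap (3 higher, 3 lower), against 45.3% of all genes (23.7% higher, 21.6% lower). Among the 11197 genes above the median level, 2980 were higher and 3167 lower without overlap, and 20.2% had an unadjusted p under 0.05. The median change of the 10 was 0.04, against 0.01 over all genes, and -0.05 without the second Comp.4 array. With a variance prior that follows the mean level HERPUD1 passed (adjusted p = 0.0302), where 4.8% of all genes did. Of the 11197 genes above the median level, 452 passed higher and 555 lower in that fit. The intervals place the difference between the compounds for each of the 10 within 1.5-fold, which does not show that they act alike. CHAC1 was 2.97-fold higher under Comp.4 (log2 1.57, adjusted p = 0.0166) and ASNS higher by 0.74 (adjusted p = 0.0365). Both calls were lost on leaving out any 1 of the 6 arrays (adjusted p = 0.0682 to 0.133 and 0.1105 to 0.189), while the log2 differences stayed at 1.44 to 1.70 and 0.65 to 0.84. ATF4 had 0.53 (adjusted p = 0.0593), DDIT3 0.31 (-0.02 to 0.63, adjusted p = 0.360) and HSPA5 -0.01. The DDIT3 value was 0.52 without the first Comp.2 array and 0.0972 without the second.

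The genes that work beside the 10 were described from 9 lists holding 146 measured genes, 136 of them not members. These lists, too, were chosen with earlier results of these data known. In the list of sensors and their activation (12 measured) none passed in any comparison. MBTPS2, the protease gene that releases ATF6, had -0.22 under Comp.4 and CREB3L4, a related membrane-bound factor, -0.26 under Comp.2. None of 16 ER chaperone genes passed, with medians of 0.04 under Comp.4 and 0.05 under Comp.2. DNAJC1 had 0.21 under Comp.4, and DNAJC3, a BiP co-chaperone gene, 0.15 under Comp.2. None of 17 genes of disulfide isomerases and ER redox passed. ERO1B, an oxidase gene, had 0.33 under Comp.4 and TMX4 -0.35 under Comp.2. Between the compounds that list's median was 0.10, with ERP29 at 0.35 and PRDX4, a peroxiredoxin gene, at 0.28.

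None of 24 genes of ER-associated degradation passed, and their medians were -0.0031 under Comp.4 and -0.01 under Comp.2. Under Comp.4, 7 were higher and 6 lower at an unadjusted p under 0.05, the members SEL1L and EDEM1 among the lower. That is 54.2% of the list, against 16.5% of all genes and 21.9% of the genes above the median level. The other pathway lists ranged from 6.25% (ER chaperones) to 40.0% (ER-phagy receptors, 5 genes) under Comp.4. The degradation list had 12.5% under Comp.2 (11.2% of all genes) and 33.3% between the compounds (15.0%). With the variance prior that follows the mean level, 2 genes of the degradation list were higher and 4 lower under Comp.4 at an adjusted p under 0.05. In that fit 5.47% of all genes passed, and 438 higher and 682 lower of the 11197 genes above the median level. SYVN1, the gene of HRD1 itself, measured 6.66 and 6.72 under Comp.4, 6.96 and 7.07 under Comp.2, and 7.03 and 6.95 in vehicle. Its log2 change was -0.30 under Comp.4 (-0.49 to -0.12, adjusted p = 0.148) and 0.02 under Comp.2, and the Comp.4 arrays lay below the other 4. MARCHF6, another ER ubiquitin ligase gene, had -0.28 under Comp.4, and UFD1, of the extraction complex, 0.26.

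**Figure D3:**
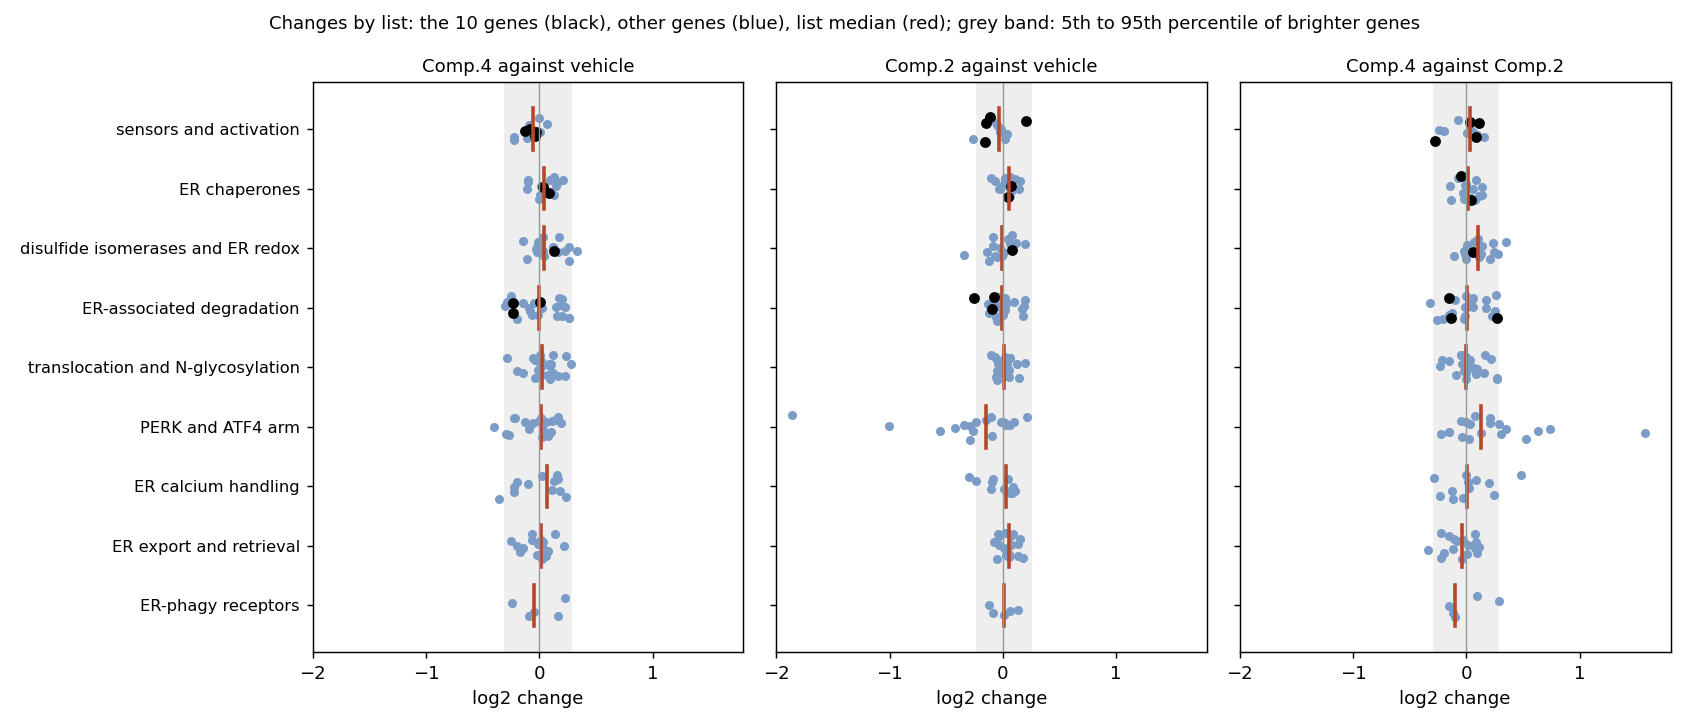
Log2 change (x axis) of each measured gene of the 9 lists (rows) in the 3 comparisons, with the 10 members in black, other genes in blue and list medians in red. The grey band covers the 5th to 95th percentile of the 11197 brighter genes, and the points farthest outside it are CHAC1 and ASNS in the PERK and ATF4 arm, under Comp.2 (-1.86 and -1.01) and between the compounds (1.57 and 0.74), followed by TRIB3 and ATF4.

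In the 19 genes of the PERK and ATF4 arm 2 fell under Comp.2 (CHAC1 and ASNS), none passed under Comp.4, and the same 2 were higher under Comp.4 than under Comp.2. With the variance prior that follows the mean level, 3 were lower under Comp.4, where 5.47% of all genes passed. Under Comp.2 it called 7 lower (1.73% of all genes), and between the compounds 5 higher and 1 lower (4.8%). Among the 11197 genes above the median level it called 438 higher and 682 lower under Comp.4. Under Comp.2 these counts were 214 and 153, and between the compounds 452 and 555. At an unadjusted p under 0.05 the list had 26.3% under Comp.4 (16.5% of all genes, 21.9% of the genes above the median level). It had 47.4% under Comp.2 (11.2% and 13.7%) and 47.4% between the compounds (15.0% and 20.2%). Its medians were 0.01 under Comp.4, -0.14 under Comp.2 and 0.12 between the compounds. The direction of CHAC1 and ASNS was known from earlier results of these arrays, so this list gives no independent support. No gene passed among 24 of translocation and N-glycosylation (medians 0.02 and 0.01 under Comp.4 and Comp.2), 12 of ER calcium handling (0.07 and 0.03), 17 of ER export and retrieval (0.02 and 0.05) or 5 ER-phagy receptors (-0.05 and 0.01). At an unadjusted p under 0.05, the 136 genes that are not members had 18 higher and 19 lower under Comp.4 (27.2%, against 16.5% of all genes and 21.9% of the genes above the median level). They had 4 higher and 12 lower under Comp.2 (11.8%, against 11.2% and 13.7%), and 24 higher and 14 lower between the compounds (27.9%, against 15.0% and 20.2%).

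HERPUD1 had the lowest p of any member (0.0101, Comp.4 against Comp.2, unadjusted), and the genes most like it were ranked by Pearson's r over the 6 arrays, as a description, since 6 arrays in 3 groups give many genes a high r. Of 11196 other genes above the median level, 1.5% had r above 0.9, and the 5 highest were DEAF1 (0.99), PSMD3 (0.99), ATG16L2 (0.98), EIF1 (0.98) and ECSIT (0.97). Among the 137 other genes of the 9 lists above that level the 5 highest were ATF4 (0.97), TRIB3 (0.96), XBP1 (0.93), CHAC1 (0.93) and ASNS (0.92). Among the other members EIF2AK3 had the lowest r, -0.89. Both Comp.2 arrays were the lowest of the 6 for HERPUD1, ATF4 and TRIB3, and likewise for XBP1 and ATF6. The share of all genes with that order of arrays was not counted. Against vehicle alone, 21.0% of all genes had lower Comp.2 arrays without overlap. ATF4, TRIB3 and XBP1 were named by their r to HERPUD1, so a like order follows from that choice. TRIB3, the gene of a pseudokinase in the ATF4 response, had -0.56 under Comp.2 (adjusted p = 0.121) and ATF4 -0.42, against -0.26 for HERPUD1.

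**Figure D4:**
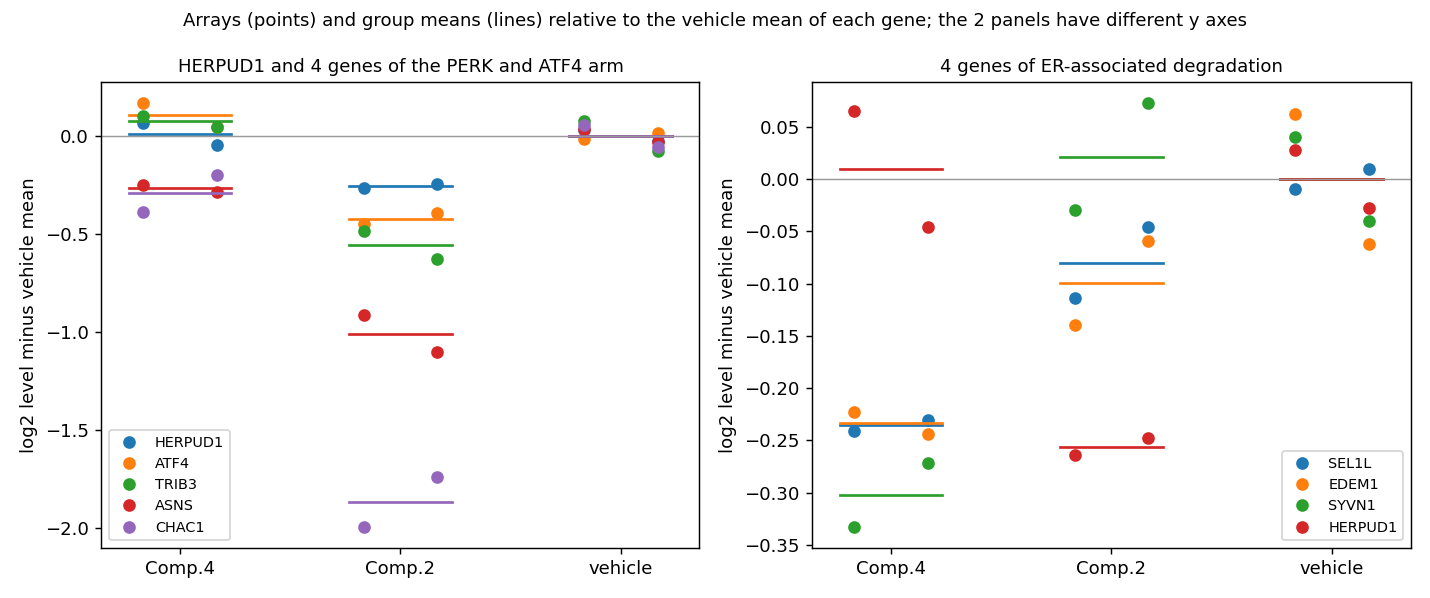
Log2 level minus the vehicle mean of each gene (y axis) on the 6 arrays (points) with group means (lines), for HERPUD1 and 4 genes of the PERK and ATF4 arm (left) and 4 genes of ER-associated degradation (right, on a finer axis). HERPUD1, ATF4, TRIB3, ASNS and CHAC1 all have their lowest arrays under Comp.2, and SEL1L, EDEM1 and SYVN1 theirs under Comp.4. The 4 genes beside HERPUD1 on the left are among the list genes with the highest r to it, so a like profile follows from that choice. Under Comp.4, 7 genes of the degradation list were higher and 6 lower at an unadjusted p under 0.05 (limma). None of the 7 is shown.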

How the data were processed

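Gene expression was measured in 6 A549 samples on Affymetrix arrays, from 100 ng of RNA each. The deposited values are log2 levels, computed with RMA, which subtracts background, equalises the arrays' distributions and summarises probes, per the submitters' processing notes. The notes list version 1.3.1 of Expression Console and version 2.0 of Transcriptome Analysis Console. Quantile normalization hides a change shared by most transcripts, and the background floor of RMA makes changes of dim genes too small. The genome build is not given in the sources used here.

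Of 53617 probe sets, 23871 had 1 gene symbol in the platform annotation, 1842 several and 27904 were unnamed here. Entrez numbers updated 90 symbols through RefSeq. The probe set with the highest mean stood for each of 22395 genes. limma 3.58.1 in R 4.3.3 fitted a mean per group to all 6 arrays (3 residual and 3.71 prior degrees of freedom). P-values are two-sided and Benjamini-Hochberg adjusted over 22395 genes, with a threshold of 0.05. An exact permutation test of 2 arrays against 2 cannot pass that threshold, and none was run. The fit was checked on simulated data. "Above the median gene" refers to the mean over 6 arrays.

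The members and lists were chosen with earlier results of these data known. All 10 members were named, and per list and comparison each gene past the threshold and up to 3 others with the largest changes among brighter genes whose arrays did not overlap. CHAC1, ASNS, ATF4, DDIT3 and HSPA5 were named throughout. SYVN1, MARCHF6, UFD1 and TRIB3 came from that rule. Alternatives were a variance trend, brighter genes only, all probe sets, the mean of a gene's probe sets, the 2 compared groups alone, median centring, the replicate number as a block, and each array left out.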

Additional observations from a re-analysis of the deposited data

Results flagged for a closer look

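CHAC1 and ASNS are given a closer look because the effects of the compounds against vehicle differed by limma's test of the difference. The log2 difference, Comp.4 minus Comp.2, was 1.57 for CHAC1 and 0.74 for ASNS. None of the 10 ER stress and folding genes differed between the compounds by that test.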

How the results depend on the processing

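The count of members past the threshold stayed at 0 in the 3 comparisons under all alternatives except the variance trend, which called 1 under Comp.4 (SEL1L) and 1 between the compounds (HERPUD1). Without any 1 array the members' median was -0.12 to -0.04 under Comp.2, -0.0846 to -0.0168 under Comp.4 and -0.0495 to 0.0647 between the compounds. All genes called under Comp.4, under Comp.2 and between the compounds numbered 33, 44 and 83. They were 1226, 388 and 1075 with a variance trend, 839, 233 and 716 among brighter genes, 99, 0 and 2 with all probe sets, and 0, 14 and 0 with the compared groups alone. With the replicate number as a block they were 4, 15 and 0. Without any 1 array they were 0, 0 to 14 and 0 to 1. Over the fits of genes, 2381 to 4254 had an unadjusted p under 0.05 in the Comp.4 and between-compound comparisons and 1668 to 2978 in that of Comp.2. Over all probe sets, 7302 did under Comp.4, 4762 under Comp.2 and 6225 between the compounds. Of the 136 list genes that are not members, 0 higher and 0 lower under Comp.4, 0 and 2 under Comp.2, and 2 and 0 between the compounds became 5 and 14, 1 and 9, and 11 and 9 with the variance trend, and 2 and 5, 0 and 4, and 7 and 2 among brighter genes (128 of them). The block left the members' counts at 0 and their medians unmoved, and ended the calls of CHAC1 (adjusted p = 0.0517) and ASNS (adjusted p = 0.0671) between the compounds. Their calls also ended under Comp.2 with all probe sets and between the compounds with the compared groups alone, where no gene passed. Same-numbered arrays deviated together with r of -0.04 to 0.03. No deviation shared over genes was seen, which does not settle whether the numbers pair the samples. Signs turned for HERPUD1 under Comp.4 (-0.0205 after centring) and DDIT3 under Comp.4 (-0.0789 with the mean of its probe sets, -0.0152 after centring). Without 1 array, signs turned for SDF2L1 (-0.14 to 0.24 under Comp.2, -0.0433 to 0.21 under Comp.4, -0.15 to 0.22 between the compounds), ERN1 (-0.17 to 0.11 under Comp.4, -0.0551 to 0.22 between them), EIF2AK3 (-0.17 to 0.0054) and HERPUD1 (-0.0457 to 0.0648) and DDIT3 (-0.0408 to 0.0706) under Comp.4, and CALR (-0.10 to 0.015) and HSPA5 (-0.0601 to 0.0482) between the compounds. The cause of these shifts was not tested.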
